A study of Mus musculus with 6 samples.

Results

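The cone opsins and the other components of the cone transduction cascade were followed through 10 genes, chosen by symbol: the opsins *Opn1sw* and *Opn1mw*, the cone arrestin *Arr3*, the transducin subunits *Gnat2*, *Gnb3*, and *Gngt2*, the phosphodiesterase subunits *Pde6c* and *Pde6h*, and the channel subunits *Cnga3* and *Cngb3*. All 10 were among the 21744 genes of the deposited table. RNA was sequenced from whole retinas of 3 control mice and 3 *Lhx4* null mice at postnatal day 7, on a C57BL/6J and 129S6 mixed background. By the study's description, each library came from the retinas of a single mouse after the pigment epithelium had been dissected away. The null mice of the study carried a tdTomato knock-in allele over a floxed allele with *Six3-Cre*, a driver that deletes in the developing retina (*Lhx4* tdT/loxP; *Six3-Cre*). Control mice are described for other experiments as wild type or *Lhx4* loxP/+, or, where tdTomato was followed, as *Lhx4* tdT/+ and *Lhx4* loxP/tdT, and the labels of these libraries say only control. Values are FPKM, fragments scaled to transcript length and to library size. Levels can thus be compared between genes per unit length only as far as the transcript lengths used, which are not given, are right.

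The targeted gene went against its label. *Lhx4* FPKM read 20.9, 23.8, and 19.1 in control replicates 1, 2, and 3, against 31.2, 30.3, and 29.0 FPKM in the labelled *Lhx4* null group, so the groups did not overlap and the labelled null libraries were higher (log2 fold change 0.51, limma adjusted p = 0.098). A gene-level FPKM covers every exon, and the exons deleted or replaced were not read separately. For this reason the second group is called the libraries labelled *Lhx4* null, or the labelled *Lhx4* null group, and every direction given for a cone gene rests on that label. In the same libraries *Bhlhe23* was at 11.3 ± 1.51 FPKM in controls and 0.736 ± 0.149 FPKM in the labelled *Lhx4* null group (SD, n = 3). *Cacna1i* was at 3.81 ± 0.473 and 18.1 ± 4.56 FPKM. By in situ hybridization, the study reports *Bhlhe23* ablated and *Cacna1i* increased in developing *Lhx4* null retinas.

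The libraries also differed in depth and in Y-linked transcripts. The steps of low FPKM values, which move in whole fragments, placed the controls at 95.7%, 76.8%, and 100% of the deepest library and the libraries labelled *Lhx4* null at 46.7%, 57.5%, and 65.9% (means 90.8% ± 12.3 and 56.7% ± 9.64, SD, n = 3, two-sided exact permutation p = 0.1, which is the minimum for 3 against 3). With the lengths of genes that have a single annotated transcript, this corresponds to about 34500000, 27700000, and 36100000 fragments in the controls and 16800000, 20700000, and 23800000 in the others. The Y-linked gene *Eif2s3y* was at 68.5, 25.1, and 0.833 FPKM in the controls, against 0.145, 0.113, and 72.7 FPKM in the labelled *Lhx4* null group. Each group thus held a library with high and a library with low Y-linked transcripts, and control replicate 2 lay between, at 36.7% to 51.7% of control replicate 1 for 4 Y-linked genes, which were looked up after the data were seen. Such a level raises the question whether control replicate 2 held RNA of a single mouse, as described, and this was not tested. *Opn1mw* and *Arr3* are X-linked. The part of these differences in the results below was not tested, and control replicate 2 was left out in turn for the cone genes, their pairs, the opsin ratio, and the bipolar markers.

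In cones, light isomerizes the retinal bound to an opsin, the opsin activates transducin, and transducin relieves the inhibition of a phosphodiesterase that hydrolyses cyclic GMP. The fall in cyclic GMP closes a cation channel of the outer segment and the cell hyperpolarizes, and arrestin binding ends the activity of the opsin. Mouse cones express the short-wavelength S opsin and the medium-wavelength M opsin in opposing gradients across the retina. S opsin appears before M opsin during development, and M opsin depends on thyroid hormone signalling. Rods use a parallel set of paralogous proteins.

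Of the 10 cone genes, all passed the minimum mean of 0.1 FPKM, and *Opn1sw* alone passed an adjusted p under 0.05 in limma, which 0.224% of the 15200 genes tested did (34 genes, and 20 without control replicate 2). The 6 libraries separated without overlap in 7 of the 10, with 5 higher in the labelled *Lhx4* null group (*Opn1sw*, *Pde6h*, *Cnga3*, *Gnat2*, and *Cngb3*) and 2 lower (*Opn1mw* and *Arr3*). Over all genes tested, 14.2% separated in this way, 8.1% higher and 6.13% lower. An unadjusted p under 0.05 was reached by 6 of the 10 and by 8.15% of all genes tested. The median log2 fold change of the 10 was 0.29, beside 0.01 over all genes tested, and the single values ran from -1.77 to 0.88. The genes were chosen with earlier results of these data known, so these counts describe the list and do not set it apart from other genes. In whole retina, a difference in the number of cones and a difference in transcript per cone cannot be told apart for a single gene, and these genes did not all differ in the same direction.

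**Figure D1:**
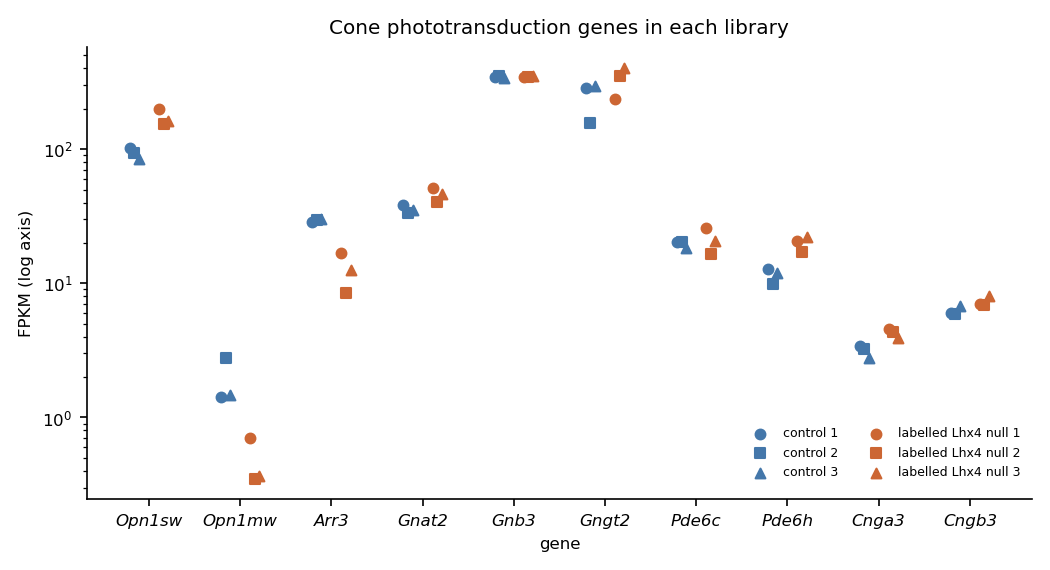
FPKM of the 10 cone phototransduction genes on a log axis, with 1 point per library, control libraries in blue and libraries labelled *Lhx4* null in orange, and marker shape for the replicate number. *Opn1mw* and *Arr3* lie lower in every orange library and *Opn1sw* lies higher, while the values of *Gnb3* run only from 338 to 351 FPKM.

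In both groups, *Gnb3* and *Gngt2* had the highest levels and *Opn1mw* the lowest. The control means ran from 345 FPKM for *Gnb3* and 247 FPKM for *Gngt2* through 93.6 for *Opn1sw*, 35.7 for *Gnat2*, 29.6 for *Arr3*, 19.8 for *Pde6c*, 11.6 for *Pde6h*, 6.25 for *Cngb3*, and 3.15 for *Cnga3* to 1.88 FPKM for *Opn1mw*. No neighbours in that order overlapped over the 3 controls. Among the libraries labelled *Lhx4* null, *Arr3* ranked below *Pde6c* and *Pde6h*, at 7 by mean level where it ranked 5 in controls, and *Gnb3* overlapped *Gngt2* and *Pde6c* overlapped *Pde6h*. *Gnb3* and *Gngt2* stood well above *Gnat2*, their partner in the cone transducin trimer. *Gnb3* is also known to serve the ON bipolar cells, so its level in whole retina is not that of cones alone.

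Promoters were read from RefSeq (GRCm38.p6), as the 250 bases upstream of each start, and those of *Opn1sw* and *Arr3* are shown because these genes differed in direction. The *Opn1sw* window is chr6:29380514-29380763 on the minus strand, inside the span annotated for *Opn1sw* and outside its exons. The *Arr3* window is chrX:100605247-100605496 on the plus strand, outside any annotated gene. Capitals mark matches on either strand to TAATCC (the core bound by CRX and OTX2), TAATTA (the core of LIM-homeodomain factors), or AGGTCA (a core of nuclear receptor sites).
Opn1sw: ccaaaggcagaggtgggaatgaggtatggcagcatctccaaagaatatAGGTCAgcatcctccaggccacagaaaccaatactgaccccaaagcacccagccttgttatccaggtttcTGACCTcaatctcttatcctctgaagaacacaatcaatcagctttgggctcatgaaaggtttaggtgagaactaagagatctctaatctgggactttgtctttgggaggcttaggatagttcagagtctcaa
Arr3: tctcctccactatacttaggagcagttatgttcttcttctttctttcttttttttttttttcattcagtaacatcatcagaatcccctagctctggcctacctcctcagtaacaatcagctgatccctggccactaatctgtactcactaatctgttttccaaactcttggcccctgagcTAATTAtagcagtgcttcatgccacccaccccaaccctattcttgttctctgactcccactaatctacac
The *Arr3* window held 1 match to TAATTA, where 4.84% of 32851 promoter windows of this length hold at least 1. The *Opn1sw* window held 2 matches to AGGTCA, where 14% of windows hold at least 1, and the *Opn1mw* window held no match to any of the 3. TAATCC, present in 6.25% of windows, was found among the members only in *Gnat2*, with 1 match. The *Pde6h* window and both *Cnga3* windows held none of the 3 motifs. The 6 members with a promoter in the table gave 7 windows, and *Pde6c*, *Cngb3*, *Gngt2*, and *Gnb3* had none. A match is a run of letters and was not tied to binding.

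*Opn1sw* (ENSMUSG00000058831, chromosome 6 from 29376671 to 29388468 of GRCm38) encodes the S opsin. Control replicates 1, 2, and 3 had 103, 92.9, and 85.2 FPKM, against 201, 153, and 164 FPKM in the labelled *Lhx4* null group. Every labelled null library was above every control, and the means differed 1.84-fold (93.6 ± 8.78 and 173 ± 25.2 FPKM, SD, n = 3). On the log2(FPKM + 0.1) scale the difference was 0.88 (SE 0.12, 95% interval 0.61 to 1.14, limma adjusted p = 0.031). Its direction held in all 16 alternative settings, between 0.76 and 1.01, but its adjusted p was under 0.05 in 7 of them and not in 9. Leaving out control replicate 1, 2, or 3 gave adjusted p = 0.062, 0.12, and 0.14 from limma, and leaving out labelled null replicate 2 or 3 gave 0.085 and 0.11. Without labelled null replicate 1, the library with the highest *Opn1sw*, the call stood at limma adjusted p = 0.038. On the opposite strand, 397 of the 2557 exon bases of *Opn1sw* are shared with *Calu*, and whether counting used strand is not given in the sources used here. *Calu* was at 47.1 ± 1.92 FPKM in controls and 51.2 ± 3.05 FPKM in the labelled *Lhx4* null group (SD, n = 3), with overlapping groups.

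*Opn1mw* (ENSMUSG00000031394, chromosome X from 74127464 to 74150760) encodes the M opsin and was scarce at this age. It was at 1.41, 2.75, and 1.46 FPKM in the controls, against 0.699, 0.351, and 0.367 FPKM in the labelled *Lhx4* null group. The groups did not overlap, and the control mean was 3.97 times the other (1.88 ± 0.761 and 0.472 ± 0.196 FPKM, SD, n = 3). The log2 fold change came to -1.77 (SE 0.32, limma adjusted p = 0.097), and it did not pass 0.05 in any of the 16 alternatives. With a pseudocount of 1 FPKM, which is above every labelled null value, it was -0.94. From the depth above and an annotated transcript of 1227 bases, these values stood for about 60, 94, and 65 fragments in the controls and 14, 9, and 11 in the labelled *Lhx4* null group. The 95% Poisson intervals, which cover counting error only, were 1.08 to 1.82 FPKM for control replicate 1 and 0.382 to 1.17 FPKM for labelled null replicate 1, and these overlapped. The interval of control replicate 3, from 1.13 FPKM, overlapped that of labelled null replicate 1 as well. Those of labelled null replicates 2 and 3 ended at 0.666 and 0.656 FPKM, below every control interval. Control replicate 2 had the highest *Opn1mw* of the 6 libraries, and without it the log2 fold change was -1.48 (limma adjusted p = 0.24).

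The opsins differed in opposite directions in the same libraries. *Opn1mw* was 1.37%, 2.96%, and 1.72% of *Opn1sw* FPKM in control replicates 1, 2, and 3, and 0.348%, 0.229%, and 0.224% in the labelled *Lhx4* null group. The mean ratio was 7.56 times as high in controls (2.02% ± 0.836 and 0.267% ± 0.0699, SD, n = 3), and no control overlapped the other group (two-sided exact permutation p = 0.1, the minimum). A ratio within a library does not move with library scaling. The difference was 5.79-fold without control replicate 2, which had the highest ratio, and 8.90-fold without labelled null replicate 1.

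**Figure D2:**
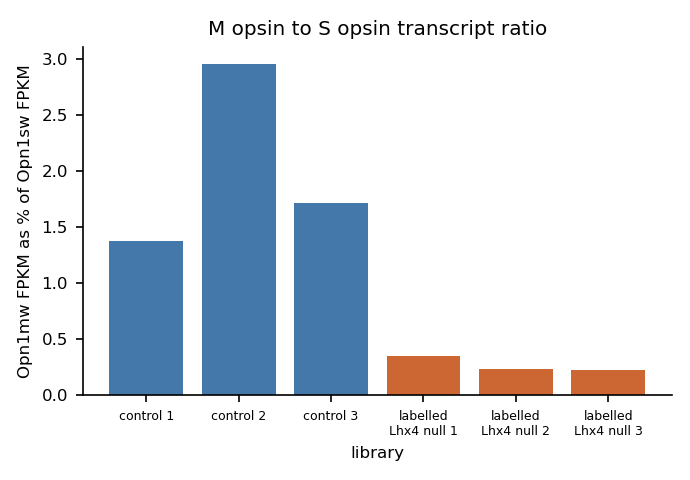
*Opn1mw* FPKM as a percentage of *Opn1sw* FPKM, with 1 bar per library starting at 0, controls in blue and libraries labelled *Lhx4* null in orange. The controls lie between 1.37% and 2.96%, and the other 3 libraries lie at or below 0.348%.

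*Arr3* (ENSMUSG00000060890, chromosome X from 100605497 to 100618493) encodes cone arrestin, which binds activated cone opsin and ends its signal. It was at 28.7, 29.7, and 30.2 FPKM in the controls, against 16.9, 8.53, and 12.7 FPKM in the labelled *Lhx4* null group. The controls lay close together and the others spread more widely, yet all 3 of these were below every control. The control mean was 2.33 times the other (29.6 ± 0.741 and 12.7 ± 4.16 FPKM, SD, n = 3), with a log2 fold change of -1.27 (SE 0.21, 95% interval -1.74 to -0.79, limma adjusted p = 0.077). Without labelled null replicate 1, the library with the most *Arr3* in its group, the log2 fold change was -1.50 and passed (limma adjusted p = 0.019), and over the 16 alternatives the adjusted p ran from 0.019 to 0.27. About 1347, 1119, and 1479 fragments stood behind the control values and 386, 240, and 409 behind the others, so counting error was small for this gene.

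The transducin subunits, which couple the opsin to the phosphodiesterase, did not pass the test. *Gnat2* (ENSMUSG00000009108), the alpha subunit that binds and hydrolyses GTP, was at 38.5, 33.6, and 35.0 FPKM in controls, against 51.3, 40.3, and 46.6 FPKM in the labelled *Lhx4* null group. The groups did not overlap, and the log2 fold change was 0.36 (95% interval 0.13 to 0.59, limma adjusted p = 0.39), or 0.24 with 2 against 2 libraries, which leaves out control replicate 2 and labelled null replicate 1. *Gnb3* (ENSMUSG00000023439), the beta subunit, was at 346, 350, and 338 FPKM in controls, against 345, 344, and 351 FPKM in the others. Its log2 fold change of 0.01 had a 95% interval of -0.15 to 0.17, so a shift beyond that range was not seen at this spread, and its sign turned under median of ratios scaling, under quantile normalization, and without control replicate 3, and it ran from -0.0043 to 0.025 over the 16 alternatives. *Gngt2* (ENSMUSG00000038811), the gamma subunit, was at 287, 157, and 296 FPKM in controls, against 237, 350, and 406 FPKM in the others. Control replicate 2 and labelled null replicate 1 were each the lowest of their group for *Gngt2*. Its log2 fold change was 0.45 (limma adjusted p = 0.70), 0.15 without control replicate 2, 0.28 without labelled null replicate 3, and -0.01 with the rod marker score as a covariate, an alternative chosen after the data were seen. The *Gngt2* value rose to 0.58 without control replicate 1, 0.61 without control replicate 3, and 0.67 without labelled null replicate 1, the largest of the 16 alternatives. *Gngt2* shares 234 of 1877 exon bases with *Abi3* on the opposite strand, and *Abi3* was at 2.84 ± 0.355 and 4.19 ± 0.607 FPKM (SD, n = 3), higher in every labelled null library (log2 fold change 0.54, limma adjusted p = 0.38).

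Of the phosphodiesterase subunits, *Pde6h* separated between the groups and *Pde6c* overlapped, and neither passed the test. *Pde6h* (ENSMUSG00000064330), the inhibitory gamma subunit, was at 12.8, 9.85, and 12.0 FPKM in controls, against 20.6, 17.2, and 22.3 FPKM in the labelled *Lhx4* null group. All 3 of these were above every control, with means that differed 1.73-fold (11.6 ± 1.54 and 20.04 ± 2.58 FPKM, SD, n = 3) and a log2 fold change of 0.79 (SE 0.13, limma adjusted p = 0.076). The adjusted p ran from 0.051 to 0.26 over the 16 alternatives. *Pde6c* (ENSMUSG00000024992), the catalytic subunit on which cone responses depend, was at 20.4, 20.5, and 18.4 FPKM in controls, against 26.0, 16.5, and 20.6 FPKM in the others. Its groups overlapped, with a log2 fold change of 0.07 (95% interval -0.27 to 0.41, limma adjusted p = 0.93), and its sign turned without labelled null replicate 1 (-0.096) and with 2 against 2 libraries. Over the 16 alternatives it ran up to 0.30, with the rod marker score as a covariate. Whether the pair of subunits differed from each other was not tested. *Pde6h* shares 136 of its 7846 exon bases with *Arhgdib* on the opposite strand, which was at 2.45 ± 0.175 and 2.63 ± 0.323 FPKM (SD, n = 3), with overlapping groups.

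The channel subunits were both slightly higher in the labelled *Lhx4* null group, and neither passed the test. *Cnga3* (ENSMUSG00000026114), the alpha subunit that forms the pore, was at 3.43, 3.24, and 2.77 FPKM in controls, against 4.55, 4.36, and 3.92 FPKM in the others, without overlap. The log2 fold change was 0.43 (95% interval 0.15 to 0.71, limma adjusted p = 0.41). *Cngb3* (ENSMUSG00000056494), the modulatory subunit, was at 6.05, 5.90, and 6.78 FPKM in controls, against 6.99, 6.84, and 8.02 FPKM in the others. Its groups were close to touching, and the log2 fold change was 0.22 (95% interval -0.02 to 0.46, limma adjusted p = 0.64).

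The 9 rod paralogs considered here had negative log2 fold changes in the labelled *Lhx4* null group, and in all 9 the groups overlapped. None of the 9 passed an adjusted p under 0.05 in limma, and 1 had an unadjusted p under 0.05, which 8.15% of all genes tested had. Their log2 fold changes ran from -0.69 to -0.16 with a median of -0.33, where 7096 of all 15200 genes tested lay below 0. *Sag*, the rod arrestin and the most abundant of them, was at 945, 1008, and 892 FPKM in controls, against 927, 623, and 739 FPKM in the others. Control replicate 2 and labelled null replicate 1 were the highest of their groups for *Sag*, and also for *Gnat1*, at 84.3 and 56.1 FPKM where the other libraries lay between 20.05 and 35.8 FPKM.

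**Figure D3:**
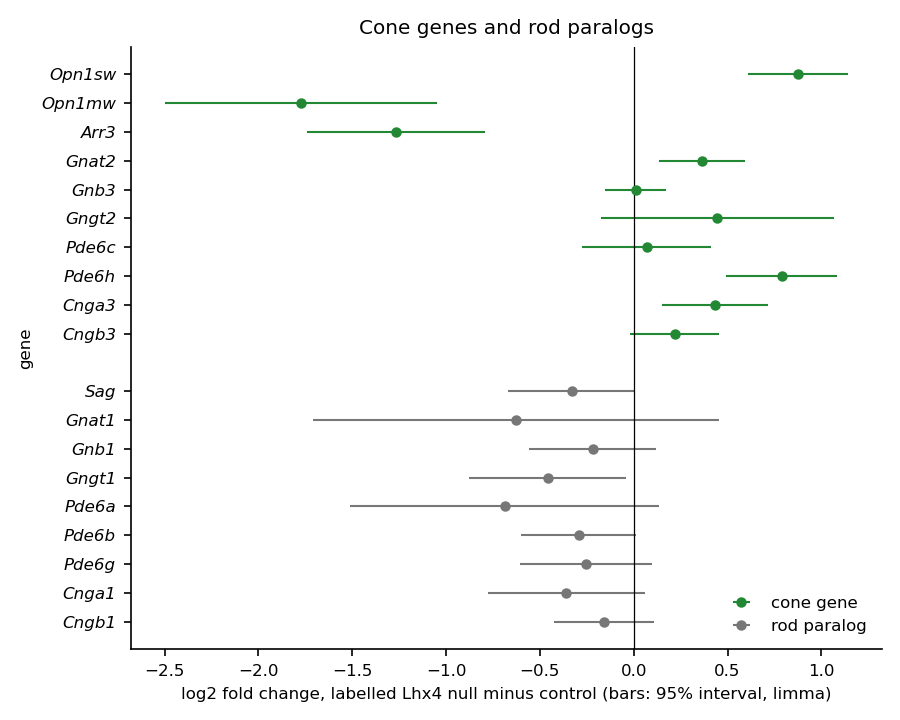
Log2 fold change of the 10 cone genes (green) and 9 rod paralogs (grey), libraries labelled *Lhx4* null minus controls, with bars for the 95% interval from limma. The cone genes spread from -1.77 to 0.88, and the rod paralogs lie between -0.69 and -0.16.

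Of the cone genes, 8 were then set against a rod counterpart within the same library. The log2 ratio was higher in every labelled null library for 3 pairs, lower in every one for 1, and overlapping for 4. *Pde6h* relative to *Pde6g* differed by 1.04, *Cnga3* relative to *Cnga1* by 0.79, and *Pde6c* relative to *Pde6b* by 0.36 (two-sided exact permutation p = 0.1 for each, the minimum). A ratio also moves with its rod gene. Taken singly, the log2 fold changes were 0.07 for *Pde6c*, whose groups overlapped, and -0.29 for *Pde6b*. They were 0.79 for *Pde6h* and -0.25 for *Pde6g*, 0.43 for *Cnga3* and -0.36 for *Cnga1*, and -1.27 for *Arr3* and -0.33 for *Sag*. *Arr3* relative to *Sag* differed by -0.94, with -5.03, -5.08, and -4.88 in controls and -5.77, -6.17, and -5.86 in the others (two-sided exact permutation p = 0.1). The *Gnat2*, *Gnb3*, *Gngt2*, and *Cngb3* ratios overlapped, with control replicate 2 the lowest in each of the 4. Without it, the difference went from 0.99 to 0.49 for *Gnat2* and from 0.90 to 0.52 for *Gngt2*. For *Gnb3* the difference was 0.23, and it ran from 0.14 without labelled null replicate 3 to 0.38 without labelled null replicate 1. *Gnb3* also serves ON bipolar cells, and *Gnb1* is not among the rod markers used here, so this pair does not set cones against rods alone. For *Cngb3* the difference was 0.37, and 0.23 without labelled null replicate 3. With pseudocounts of 1 and 0.01 FPKM and with each library left out, the sign of all 8 ratios held in 64 of 64 recomputed values.

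**Figure D4:**
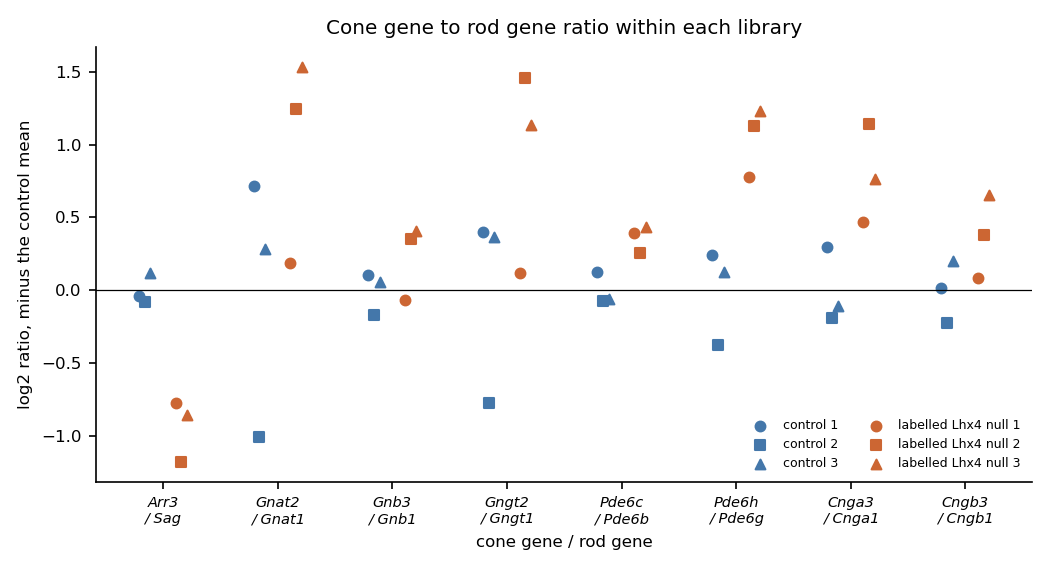
Log2 ratio of 8 cone genes to a rod counterpart within a library, minus the control mean of that pair, with 1 point per library, controls in blue and libraries labelled *Lhx4* null in orange. *Pde6c*, *Pde6h*, and *Cnga3* ratios are higher in all orange libraries, the *Arr3* ratio is lower, and the other 4 overlap. The FPKM of *Pde6c* by itself overlapped between the groups.

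Genes that serve phototransduction and its recovery in photoreceptors, most of them shared by rods and cones, gave no call. Of 19, none passed an adjusted p under 0.05 in limma, 4 were lower and 1 higher at an unadjusted p under 0.05, 16 lay below and 3 above a log2 fold change of 0, and the median was -0.31. Over all 15200 genes tested, 540 were lower and 699 higher at an unadjusted p under 0.05, and 7096 lay below and 8104 above 0. Among the 19, *Guca1a*, an activator of guanylate cyclase, was at 34.4, 31.4, and 33.9 FPKM in controls, against 45.5, 39.2, and 43.9 FPKM in the labelled *Lhx4* null group, without overlap (log2 fold change 0.36, limma adjusted p = 0.21). *Grk1*, an opsin kinase that mouse cones also use, had a log2 fold change of -0.60 (limma adjusted p = 0.59).

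Of 14 regulators of photoreceptor identity, none passed an adjusted p under 0.05 in limma, and the median log2 fold change was 0.09. At an unadjusted p under 0.05, which 8.15% of all genes tested reached, 1 was lower and 3 were higher. *Rxrg*, a retinoid receptor of developing cones that is needed for the repression of S opsin, was at 7.83, 5.79, and 7.74 FPKM in controls, against 10.02, 15.8, and 13.1 FPKM in the labelled *Lhx4* null group (log2 fold change 0.85, limma adjusted p = 0.19). *Thrb*, the thyroid hormone receptor required for M opsin, was at 9.79 ± 0.639 and 9.01 ± 1.86 FPKM (SD, n = 3).

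Markers of other retinal cells also differed between libraries. With the rod marker score as a covariate, an alternative added after the data were seen, the log2 fold changes were 1.01 for *Opn1sw*, which still passed, -1.24 for *Opn1mw*, and -0.95 for *Arr3*, and the part of the other markers in the cone values was not tested. The 16 bipolar markers summed to 1086, 1186, and 1015 FPKM in controls and 797, 865, and 858 FPKM in the labelled *Lhx4* null group. Of these 16, 7 passed an adjusted p under 0.05 in limma, which 0.224% of all genes tested did. The groups overlapped for *Vsx1*, *Prkca*, *Gnao1*, *Cabp5*, and the most abundant marker, *Otx2*, which photoreceptors also express. *Vsx1* and *Otx2* lay above a log2 fold change of 0, at 0.28 and 0.07 (limma adjusted p = 0.60 and 0.92). The 7 that passed were all lower: *Grm6*, *Isl1*, *Pcp2*, *Scgn*, *Grik1*, *Bhlhe23*, and *Lhx3*. Their log2 fold changes ran from -3.78 for *Bhlhe23* to -0.70 for *Isl1*. Without control replicate 2, a comparison added after the data were seen, *Isl1* and *Scgn* no longer passed (limma adjusted p = 0.088 and 0.14) and the other 5 did. The log2 fold changes of *Isl1* and *Scgn* were then -0.63 and -1.62, against -0.70 and -1.73 with all libraries, and neither gene overlapped between the groups. From its own RNA sequencing at this age, the study names *Grm6*, *Trpm1*, *Gng13*, *Pcp2*, *Car8*, *Scgn*, *Grik1*, *Bhlhe23*, and *Lhx3* as reduced. Because the bipolar list was drawn with results of these data known, its calls and lower sum are no separate test of a loss of bipolar cells. The 10 rod markers used, led by *Sag*, summed to 3617, 3922, and 3537 FPKM in controls and 3715, 2911, and 3179 FPKM in the others. None of these rod markers passed in limma, and 1 had an unadjusted p under 0.05, which 8.15% of all genes tested had. The 7 markers of dividing progenitors, led by *Hes5*, summed to 45.5, 31.8, and 49.4 FPKM in controls and 33.7, 73.3, and 57.9 FPKM in the others, with none passing and 0 at an unadjusted p under 0.05. The rod and the progenitor sums both overlapped between the groups. Control replicate 2 and labelled null replicate 1 thus had the most rod and the least progenitor transcript of their groups. In a comparison of 2 against 2 libraries without them, chosen after the data were seen, the log2 fold changes were 0.76 for *Opn1sw*, -1.74 for *Opn1mw*, -1.49 for *Arr3*, and 0.65 for *Pde6h*, and none of the 10 cone genes passed.

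The 10 pigment epithelium markers, led by *Ttr*, summed to 50.3, 43.8, and 25.3 FPKM in controls and 54.2, 69.4, and 93.0 FPKM in the labelled *Lhx4* null group. None passed in limma, and 6 were higher at an unadjusted p under 0.05, which 8.15% of all genes tested reached in either direction. *Rpe65* was at 0.720 ± 0.259 and 0.979 ± 0.582 FPKM (SD, n = 3). The mean log2(FPKM + 0.1) over the pigment epithelium list overlapped between the groups. It was 0.96, 0.70, and 0.13 in controls and 0.93, 1.12, and 1.62 in the others. The 8 Muller glia markers, led by *Apoe*, summed to 650 ± 38.3 and 768 ± 21.5 FPKM (SD, n = 3). The 9 amacrine markers, led by *Pax6*, summed to 514 ± 22.9 and 566 ± 22.2 FPKM (SD, n = 3). Both sums were higher in every labelled null library, with no marker passing and 2 and 4 markers at an unadjusted p under 0.05. By mean log2(FPKM + 0.1), however, the groups overlapped for both lists. Control replicate 2 was at 5.14 for the Muller glia list, above labelled null replicate 3 at 4.97. For the amacrine list, these libraries were at 4.86 and 4.85. The other controls lay below every labelled null library on both lists. Sums overlapped between the groups for horizontal markers (5, led by *Prox1*), retinal ganglion markers (7, led by *Sncg*), microglia (6, led by *C1qb*), endothelium (5, led by *Kdr*), and lens (5, led by *Cryaa*), and none of these markers passed, with 0, 1, 1, 2, and 0 of them at an unadjusted p under 0.05. *Mip*, a lens gene, was under the minimum mean and was not tested. The lens sum was 15.3 FPKM in control replicate 2 and 6.53 FPKM in labelled null replicate 2, and at or below 2.03 FPKM in the other libraries, with 3 of the 5 lens genes listed at 0 in some library. The 9 cone markers, which are the cone genes without *Gnb3*, were led by *Gngt2* and summed to 448 ± 80.8 and 616 ± 61.5 FPKM (SD, n = 3). Their sums separated, but their mean log2(FPKM + 0.1) overlapped between the groups. It was 4.23, 4.15, and 4.16 in controls and 4.35, 4.01, and 4.23 in the labelled *Lhx4* null group.

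**Figure D5:**
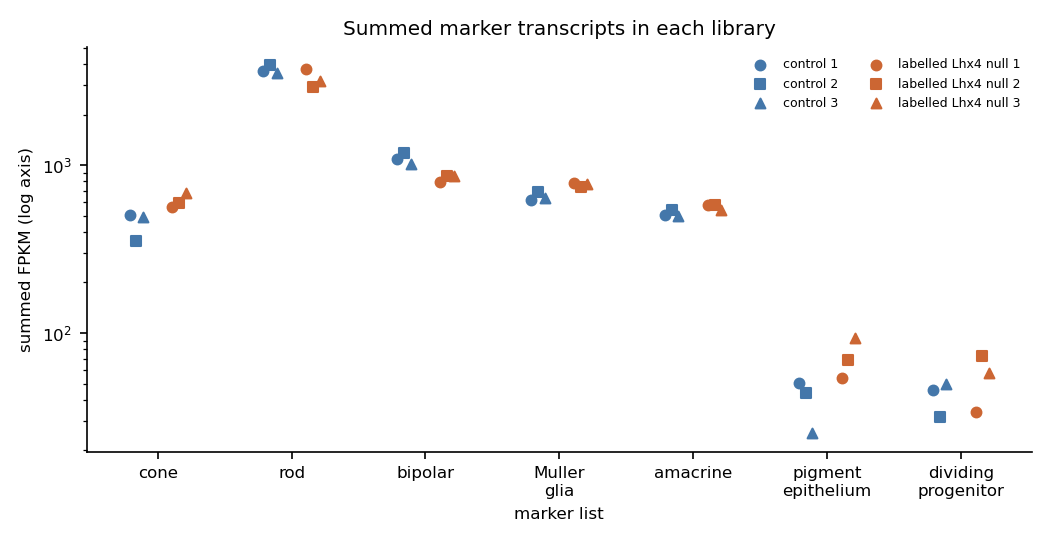
Summed FPKM of 7 marker lists on a log axis, with 1 point per library, controls in blue and libraries labelled *Lhx4* null in orange. Bipolar sums are lower in all orange libraries, cone and pigment epithelium sums are higher, and control 2 and labelled null 1 have the highest rod and the lowest dividing progenitor sums of their groups. By mean log2(FPKM + 0.1) over a list, the groups overlap for the cone and the pigment epithelium markers.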

How the data were processed

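The authors mapped paired-end reads and deposited FPKM per gene; the submitters' processing notes name TopHat2, Cufflinks, and GRCm38, and versions, annotation, and use of strand are not given in the sources used here. Groups came from the labels, and 0 columns were left unused. On log2(FPKM + 0.1), limma 3.58.1 in R 4.3.3 (lmFit, eBayes with a mean-variance trend) compared 3 libraries with 3 over 15200 genes whose mean reached 0.1 FPKM, with Benjamini-Hochberg adjustment and two-sided tests. Changes of scarce transcripts are understated on this scale. Single ratios were tested by exact permutation over 20 assignments, which cannot go below p = 0.1. Depth came from 74 to 153 low genes per pair of libraries; fragments per gene are estimates. Replicates of a group correlated at r of 0.982 to 0.992 across genes and shared 0 identical values above 1 FPKM. The fit and the depth step were tested on simulated data. Positions are from GENCODE vM21. Members, lists, and the rule for named genes (the members, their rod paralogs, fixed lists, and the 5 genes most like *Arr3*, *Opn1mw*, and *Opn1sw*) were chosen with earlier results of these data known. Alternatives changed the pseudocount, filter, scaling, trend, replicate block, and the libraries included; the rod marker score, the 2 against 2 comparison, and the bipolar markers and *Cacna1i* without control replicate 2 were added after the data were seen. Some planned genes and results are not reported here, and the rod lists, the rod marker score, and the pairs were computed without them.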

Additional observations from a re-analysis of the deposited data

How the results depend on the processing

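The number of cone genes past an adjusted p of 0.05 from limma was 1 as reported. It was 0 with no filter on low values, with quantile normalization, without the mean-variance trend, by an exact permutation test of each gene (which cannot pass), and with 2 against 2 libraries, and it ran from 0 to 2 with single libraries left out. With no filter, 18190 genes were tested in place of 15200; the cause of these losses was not tested. It stayed at 1 with the other pseudocounts, the stricter filter, median of ratios scaling, the rod marker score, and the replicate block. The block left 15 calls over all genes where 34 were made without it, and it kept *Opn1sw* (log2 fold change 0.88); deviations of same-numbered libraries correlated at -0.13, -0.00020, and 0.16, and 2 of 6 libraries correlated best with their own number, so the numbers were not taken as pairs. Of 160 recomputed log2 fold changes, 144 kept direction and side, 9 lost and 1 gained the call, and 6 reversed: *Gnb3* to -0.0041 under median of ratios scaling, -0.0039 under quantile normalization, and -0.0043 without control replicate 3 (up to 0.022 with other single libraries left out); *Pde6c* to -0.096 without labelled null replicate 1 (up to 0.23 with others left out) and -0.071 with 2 against 2 libraries; *Gngt2* to -0.012 with the rod marker score. The opsin ratio was 5.79 to 8.90 times higher in controls with single libraries left out. Where a library was left out, 3 were compared with 2. Depth limits *Opn1mw*, at 9 to 14 estimated fragments in the labelled null libraries.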

Other observations

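Genes with patterns most like those of *Arr3*, *Opn1mw*, and *Opn1sw* over the 6 libraries were sought among 12484 genes whose mean reached 1 FPKM. For *Arr3*, those among the 5 closest that are reported were *Dab2*, *Fv1*, *Apobec2*, and *Mllt3*, with Pearson r from 0.983 to 0.995 on log2(FPKM + 0.1). Their log2 fold changes were -0.27, -0.59, -0.50, and -0.45, all smaller than that of *Arr3*, and none passed an adjusted p under 0.05 in limma. For *Opn1mw* they were *Fam189a2*, *Adcy8*, *Fam19a3*, *Stom*, and *Unc5d*, with r from 0.992 to 0.998 and log2 fold changes from -0.60 to -0.52, and none passed. With 6 points in 2 groups, such an r mostly follows the difference between groups and is given as a description only.

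For *Opn1sw* the closest were *Trnp1*, *Cacna1i*, *Ptpn13*, *Ttll11*, and *Perp*, with r from 0.9746 to 0.996. *Cacna1i* encodes a pore-forming subunit of T-type calcium channels. Controls had 3.85, 4.27, and 3.32 FPKM of it, against 23.3, 14.9, and 16.2 FPKM in the labelled *Lhx4* null group. Labelled null replicate 1 was the highest library for both genes, and the order of the controls differed. Its log2 fold change was 2.20 (limma adjusted p = 0.0020), and *Trnp1*, *Ptpn13*, *Ttll11*, and *Perp* did not pass.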
